A study of Homo sapiens with 8 samples.

Results

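The kinase cascade that runs from RAS through RAF and MEK to ERK was examined in RNA that had been captured with miR-23b or miR-27a. The genes were taken by symbol from a list of 7, namely MAPK3, MAP2K1, MAP2K2, ARAF, BRAF, HRAS and NRAS. Of these, 5 genes with 6 probes were measured, among 9535 genes and 14479 probes in all, and probes of BRAF and NRAS were not analysed here. MAPK3 was chosen by its measured enrichment, which was above 0 with miR-23b and below 0 with miR-27a, so that its values are given as a description with no test. The other members were listed for their place in the cascade, and the question was whether they shared this opposite enrichment.

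HEK293T cells, a line made from human embryonic kidney by stable introduction of viral genes, received 200 pmol of a biotin-carrying synthetic duplex of either miR-23b or miR-27a and were harvested after 24 h. RNA recovered on streptavidin beads (pull-down) and RNA of transfected cells taken without a pull-down (input) were hybridised to Illumina bead arrays, with 2 arrays in each of the 4 groups. All 8 arrays came from cells that contained one of the duplexes, and neither untransfected cells nor a pull-down with a non-targeting duplex were analysed here. Separate cultures are not stated for the replicates, and each p-value reflects the spread between arrays, which may be technical. Of 8 markers listed for the line, 7 were measured. LIN28B (11.7 to 13.2 over the arrays), VIM and CDH2 were bright, whereas NES (7.34 to 7.74) lay close to the lowest values of the arrays (7.18 to 7.36). NEFM (8.68 to 9.54) and KRT8 (8.22 to 9.19) were at mid-level, with input means above those of 54.3% and 47.6% of probes. KRT18 (7.25 to 8.35) was dim, above 23.3%. ALB and COL1A1, of 7 markers listed for other lineages, were the 2 measured ones and did not exceed 8.71.

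Growth factor receptors load the small GTPase RAS with GTP. Loaded RAS recruits RAF kinases to the membrane, RAF phosphorylates the dual-specificity kinases MEK1 and MEK2, and MEK phosphorylates ERK kinases, which drive proliferation through cytoplasmic and nuclear substrates. A miRNA guides Argonaute to mRNAs mainly by pairing of its seed, bases 2 to 8 from the 5′ end. An mRNA recovered with a tagged miRNA may be held with it, directly or through other RNA and protein. Without a pull-down with a non-targeting duplex, recovery that does not depend on the miRNA was not assessed here. The sequences of both miRNAs are shown because the comparison turns on what separates them. The labels do not name the arm, and the 3p arms, which the unqualified names usually denote, are given from RefSeq on GRCh38.p14, with the seed in capitals.
hsa-miR-23b-3p: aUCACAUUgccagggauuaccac
hsa-miR-27a-3p: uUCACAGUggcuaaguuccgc

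The first lies at chr9:95085265-95085287 on the plus strand (MIR23B) and the second at chr19:13836447-13836467 on the minus strand (MIR27A). The seeds were equal at 6 of 7 bases and differed by U7G, with miR-23b as the reference and positions counted from 1 at the 5′ end. Pairing sites in the mRNAs of the cascade were not searched, as no transcript sequences were used here.

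MAPK3 encodes ERK1, one of the kinases that end the cascade. Levels below are the deposited log2 values, and a change is the pull-down minus the input on that scale. At the brighter of its probes, annotated to NM_002746, the miR-23b pull-down arrays had levels of 12.27 and 12.37 and the miR-23b inputs of 11.63 and 11.33. With miR-27a the pull-down levels were 10.59 and 10.55 and the input levels 11.82 and 11.45. Both miR-23b pull-downs thus lay above all 4 inputs and both miR-27a pull-downs below them, with no overlap. The change was 0.84 ± 0.17 (SE) with miR-23b, an apparent 1.79-fold enrichment, and -1.07 ± 0.17 with miR-27a, an apparent 2.09-fold depletion. The difference between these changes was 1.91 ± 0.24.

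The other MAPK3 probe, annotated to NM_001040056, gave the same signs with different sizes. Its levels were 11.75 and 12.04 in the miR-23b pull-downs and 10.62 and 10.80 in the miR-23b inputs. In the miR-27a pull-downs they were 10.48 and 10.10, against 10.84 and 10.63 in the inputs. The rise with miR-23b was larger at this probe (1.18 ± 0.18) and the fall with miR-27a smaller (-0.45 ± 0.18), which left a difference of 1.63 ± 0.26. The groups again did not overlap, but the higher miR-27a pull-down (10.48) came close to the lowest input (10.62). Across the 8 arrays the probes correlated at r = 0.89, a description of values that share their arrays. Averaging them gave changes of 1.01 with miR-23b and -0.76 with miR-27a.

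Replicate by replicate, MAPK3 at the brighter probe changed by 0.64 and 1.04 with miR-23b and by -1.23 and -0.90 with miR-27a. The inputs of the 2 miRNAs differed by -0.15 ± 0.17 at this probe and by -0.03 ± 0.18 at the other, miR-23b minus miR-27a. The inputs thus lay close together, and the pull-down levels lay apart. With any single array left out the difference at the brighter probe stayed between 1.72 and 2.09, and at the other probe between 1.44 and 1.82. Its sign could not turn this way, since the pull-downs did not overlap the inputs at either probe.

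**Figure D1:**
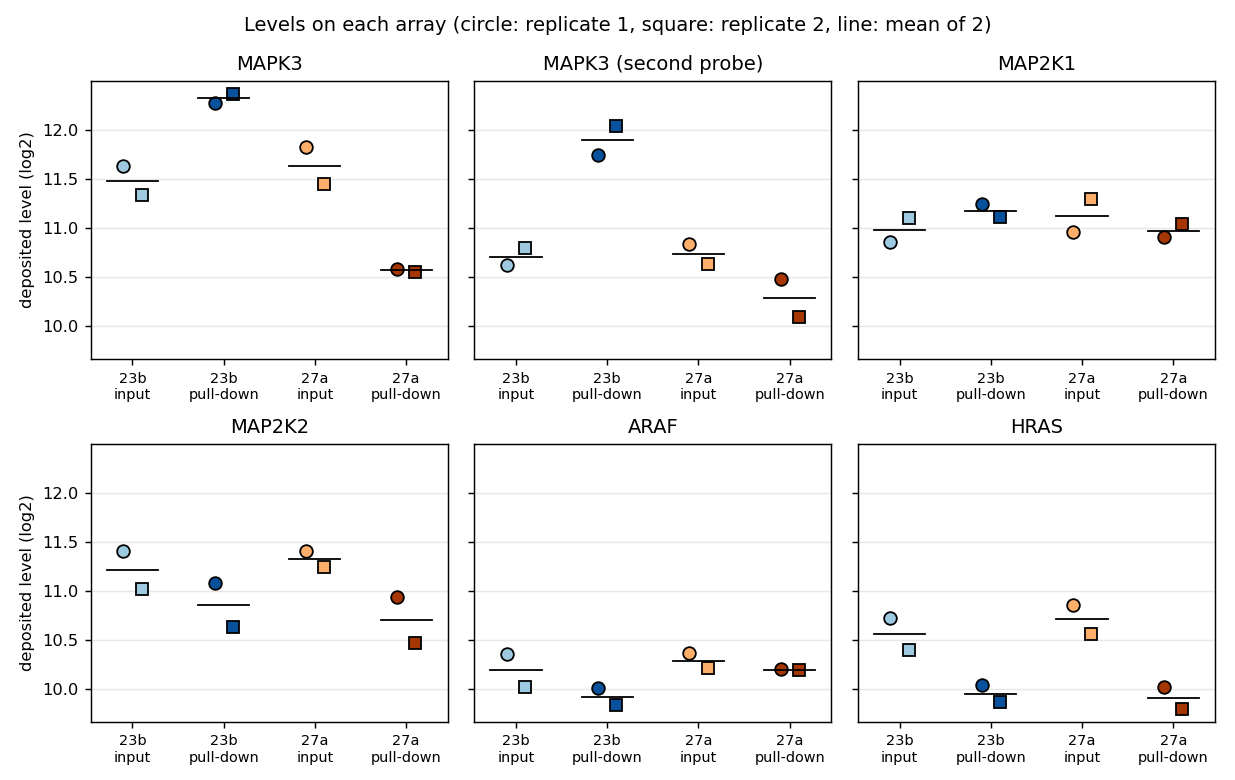
Deposited log2 level (y axis) of each measured RAS, RAF, MEK and ERK probe in the 4 groups (x axis), with a circle for replicate 1, a square for replicate 2 and a line at the mean of the 2 arrays. At both MAPK3 probes the miR-23b pull-downs lie above every input and the miR-27a pull-downs below every input, whereas HRAS lies lower in the pull-downs of both miRNAs.

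MEK1, encoded by MAP2K1, and MEK2, encoded by MAP2K2, phosphorylate ERK directly. MAP2K1 had levels of 11.25 and 11.11 in the miR-23b pull-downs, against 10.86 and 11.10 in their inputs. In the miR-27a pull-downs it had 10.90 and 11.04, against 10.96 and 11.30 in the inputs. The miR-23b pull-downs lay only just above their inputs, and the miR-27a groups overlapped. The change was 0.20 ± 0.17 with miR-23b (limma, adjusted p = 0.42) and -0.16 ± 0.17 with miR-27a (adjusted p = 0.49). MAP2K1 had the signs of MAPK3 in each replicate, with changes of 0.39 and 0.01 and of -0.05 and -0.26, but the values of 0.01 and -0.05 were close to 0. Its change with miR-27a was -0.33 without input replicate 1 of miR-27a and 0.01 without input replicate 2.

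MAP2K2 was lower in the pull-downs of both miRNAs without passing the test. Its levels were 11.08 and 10.64 in the miR-23b pull-downs and 11.41 and 11.02 in their inputs, which overlapped. With miR-27a the pull-downs had 10.94 and 10.47 and the inputs 11.40 and 11.24, which did not. The change was -0.36 ± 0.23 with miR-23b (adjusted p = 0.29) and -0.62 ± 0.23 with miR-27a (adjusted p = 0.069). Replicate 2 lay below replicate 1 in all 4 groups, by 0.16 to 0.47, and MAP2K2 fell under the replicate block, a fit that also takes a term for the replicate number, with both miRNAs (adjusted p = 0.039 and 0.0022). It also passed with miR-27a in a fit on the 4 miR-27a arrays alone (adjusted p = 0.045).

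ARAF encodes one of the RAF kinases, which phosphorylate MEK. Its levels were 10.01 and 9.83 in the miR-23b pull-downs and 10.36 and 10.02 in the inputs. With miR-27a the pull-downs were at 10.20 and 10.19, and the inputs at 10.36 and 10.22. The pull-downs were lower than the input of the same number in each of the 4 pairs, but only by 0.02 to 0.35. The change was -0.27 ± 0.16 with miR-23b (adjusted p = 0.24) and -0.09 ± 0.16 with miR-27a (adjusted p = 0.68).

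HRAS, a GTPase at the head of the cascade, was depleted in both pull-downs. The miR-23b pull-downs had levels of 10.04 and 9.86 and their inputs of 10.72 and 10.39. In the miR-27a pull-downs the levels were 10.02 and 9.80, against 10.86 and 10.56 in the inputs. All 4 pull-downs lay below all 4 inputs. HRAS fell by 0.61 with miR-23b (SE 0.18, limma, adjusted p = 0.042) and by 0.80 with miR-27a (SE 0.18, adjusted p = 0.011). The first call was lost whichever of the 8 arrays was left out (adjusted p = 0.051 to 0.19), in a fit on the miR-23b arrays alone (0.080) and with an intensity trend (0.056), and was kept with the replicate block (0.0022). The second was lost without input replicate 1 (0.071) or pull-down replicate 2 (0.075) of miR-27a, where the changes were -0.66 and -0.69.

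Of the 4 tested members other than MAPK3, 1 fell with miR-23b and 0 rose, where 10.9% of all genes were lower and 13.4% higher. With miR-27a again 1 fell and 0 rose, against 16.1% of genes lower and 18.5% higher. With the replicate block these counts were 2 lower and 0 higher for each miRNA, where 20.2% of all genes were lower and 24.5% higher with miR-23b and 27% lower and 26.4% higher with miR-27a. With 4 members, these counts cannot be told from the background. The medians of the 4 changes were -0.31 with miR-23b and -0.39 with miR-27a, where the medians of all genes were 0.02 and -0.04.

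A difference of enrichment between the miRNAs did not pass the test at any other measured step of the cascade. Opposite direction was not tested as such. The difference between the miRNAs passed for 0 of the 4 other members in limma. Of all genes, 0.262% passed as higher with miR-23b and 0.283% as higher with miR-27a. An unadjusted p under 0.05 was reached by 0 of the 4, against 968 of all 9535 genes. With 4 members, these counts cannot be told from the background. The difference was 0.35 for MAP2K1 (95% interval -0.19 to 0.90, adjusted p = 0.75) and 0.27 for MAP2K2 (-0.48 to 1.01, adjusted p = 0.91). It was 0.20 for HRAS (-0.38 to 0.78, adjusted p = 0.92) and -0.18 for ARAF (-0.69 to 0.33, adjusted p = 0.91). The upper ends of these intervals lay below both values of MAPK3, 1.91 and 1.63, but they leave room for differences of up to 1.01. MAPK3 was chosen by its opposite enrichment, so its values are not a neutral reference for the other members. With the replicate block 0 of the 4 passed as well, with adjusted p = 0.36 to 0.63, while 3.2% of all genes passed as higher with miR-23b and 1.48% as higher with miR-27a. In size, 2668 of all 9535 genes had a difference at least as large as that of MAP2K1, 3922 as that of MAP2K2, 5023 as that of HRAS and 5360 as that of ARAF.

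**Figure D2:**
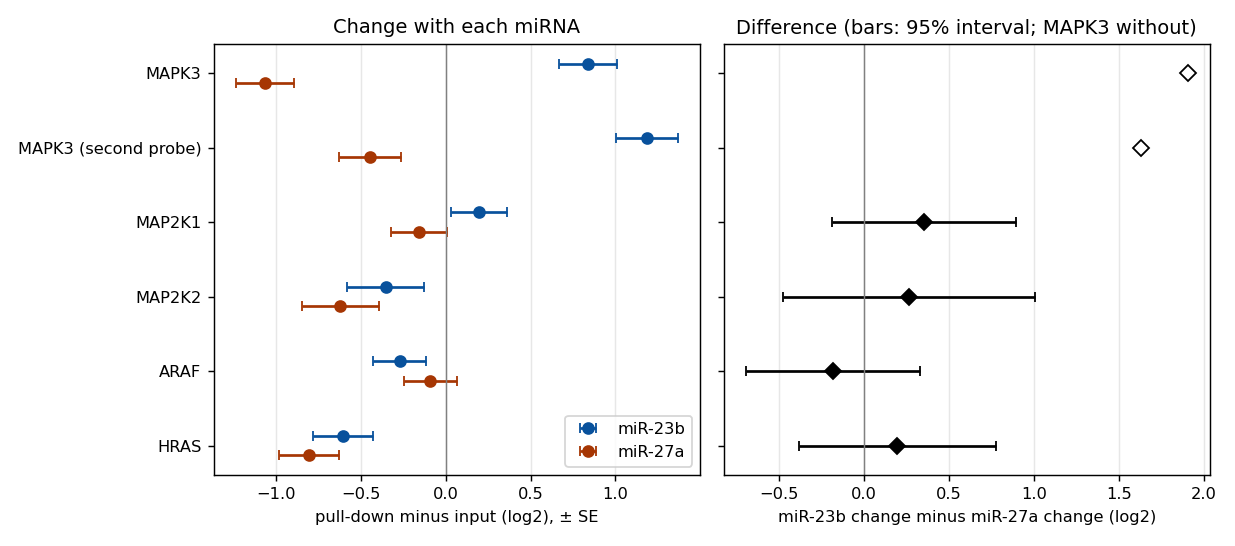
Left, log2 change of pull-down against input (x axis) for each probe with miR-23b (blue) and miR-27a (brown), with bars of 1 SE. Right, the difference between these changes (x axis), with 95% intervals for the tested genes and open symbols without intervals for MAPK3, at 1.91 and 1.63, while the intervals of the other 4 genes include 0.

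Changes above 0 in both miR-23b replicates and below 0 in both miR-27a replicates were looked for by sign alone. Of the 4 tested members only MAP2K1 had this pattern, with changes of 0.01 and -0.05 that were close to 0. MAPK3 had it as well but was chosen for it. All genes had this pattern in 6% of cases (572 of 9535). Between the inputs of the 2 miRNAs 0 of the 4 tested members passed (-0.15 to -0.10, miR-23b minus miR-27a), and 0% of all genes passed for inputs in limma, with 57 at an unadjusted p under 0.05 and 0 passing with the replicate block.

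Genes around the cascade were examined from a list of 77, of which 53 were measured. The other 24 were not analysed here. For a gene with several probes the brightest one stands here. With miR-23b 6 of the 53 rose and 4 fell, or 11.3% and 7.55%, and with miR-27a 9 rose and 7 fell, or 17.0% and 13.2%. In this fit, these shares were no higher than those of all genes given above. The medians of the list were 0.08 and -0.07. With the replicate block 11 of the 53 rose and 9 fell with miR-23b, where 24.5% of all genes were higher and 20.2% lower. With miR-27a 16 rose and 12 fell under the block, where 26.4% of all genes were higher and 27% lower. Of the 10 genes called with miR-23b and the 16 called with miR-27a, 6 rose in both and 3 fell in both, which is 90% of the first list and 56.2% of the second, and 0 were called in opposite directions. Over all genes, 1744 were called the same way with both, or 75.3% of the 2317 genes called with miR-23b and 52.9% of the 3294 called with miR-27a, and 36 in opposite directions. Nothing particular to the pathway is read from its overlap, and both lists took the spread of a gene from the same fit.

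Among RAS relatives and the proteins that load RAS, RRAS, a GTPase related to HRAS, fell with miR-23b (-0.88 ± 0.22, limma, adjusted p = 0.023) and miR-27a (-0.80 ± 0.22, adjusted p = 0.024). RRAS2 had values of -0.62 and -0.66 that did not pass (adjusted p = 0.10 and 0.067), and that passed with the replicate block (0.016 and 0.0090). PTPN11, the phosphatase SHP2 that is needed for RAS activation by receptors, rose with both (0.52 ± 0.16 and 0.65 ± 0.16). SHC1, an adaptor that links receptors to RAS loading, fell with miR-23b (-0.64 ± 0.14, adjusted p = 0.016) and had -0.18 ± 0.14 with miR-27a, and the difference did not pass (adjusted p = 0.54). The adaptor GRB2 did not pass at its brighter probe (-0.05 and -0.20), whereas its other probe fell with both (-0.94 ± 0.24 and -0.92 ± 0.24, adjusted p = 0.028 and 0.022).

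Of 4 measured brakes on RAS, SPRED1, which brings neurofibromin to RAS at the membrane, rose with miR-23b (0.79 ± 0.24, adjusted p = 0.049) and miR-27a (1.07 ± 0.24, adjusted p = 0.012). The other 3, SPRED2, SPRY1 and SPRY2, had changes between -0.27 and 0.31. Enzymes that process the RAS tail changed in different directions. ICMT, which methylates it, rose with both (0.58 ± 0.14 and 0.83 ± 0.14), and RCE1, the protease that acts before it, fell with miR-27a (-0.77 ± 0.19, adjusted p = 0.017) and had -0.58 ± 0.19 with miR-23b (adjusted p = 0.059 and, under the block, 0.020). LYPLA1, a thioesterase that removes palmitate, rose with miR-27a (1.51 ± 0.35, adjusted p = 0.013) and had 0.49 ± 0.35 with miR-23b, with a difference of -1.01 that did not pass (adjusted p = 0.62).

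Of 16 measured scaffolds and regulators 3 rose and 2 fell with miR-23b, or 18.75% and 12.5%, against 13.4% and 10.9% of all genes. With miR-27a 3 rose and 4 fell, or 18.75% and 25%, against 18.5% and 16.1% of all genes. With 16 genes, these counts cannot be told from the background. SHOC2, part of the phosphatase complex that activates RAF, rose with miR-23b (0.80 ± 0.17) and miR-27a (1.18 ± 0.17, adjusted p = 0.0025). The 14-3-3 genes YWHAB (0.80 and 0.60) and YWHAZ (0.56 and 0.58), whose products bind RAF, rose with both. A second YWHAB probe had 0.23 and 0.27 and did not pass, and the mean over its probes did not either (adjusted p = 0.059 and 0.0760). The other 4 measured 14-3-3 genes, YWHAE, YWHAG, YWHAH and YWHAQ, did not pass, with changes between -0.30 for YWHAH with miR-27a and 0.19 for YWHAE with miR-23b. Subunits of the Ragulator complex, which anchors MEK and ERK on late endosomes, fell: LAMTOR2 by 1.13 and 1.02, LAMTOR5 by 0.95 and 0.77, and LAMTOR4 by 0.79 with miR-27a. LAMTOR4 had -0.30 ± 0.13 with miR-23b, and LAMTOR3 had 0.15 and 0.69, of which the second passed only under the replicate block (0.0031). The other LAMTOR3 probe had 0.35 and 0.42 and rose with both miRNAs only under the block (adjusted p = 0.040 and 0.017). PEBP1, the RAF kinase inhibitor protein, fell with miR-27a (-0.63 ± 0.13, adjusted p = 0.0096). GRB2, SPRY2, DUSP6, PEBP1, LAMTOR3 and the 14-3-3 genes other than YWHAB fell outside the rule for named genes and were chosen after their values were seen.

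Downstream, 0 of 11 measured ERK targets passed with either miRNA in limma. Of all genes, 13.4% were higher and 10.9% lower with miR-23b, and 18.5% and 16.1% with miR-27a. At an unadjusted p under 0.05 were 1 and 2 of the targets, and 3620 and 4329 of all 9535 genes. Whether the counts of targets differ from the background was not tested. The transcription factor gene JUN had 0.62 ± 0.29 and 0.58 ± 0.29 (adjusted p = 0.15 and 0.15) and RPS6KA3, which encodes the ERK-activated kinase RSK2, 0.62 ± 0.34 and 0.98 ± 0.34 (0.22 and 0.059). RPS6KA1, which encodes the related RSK1, had -0.30 and -0.25, the transcription factor gene EGR1 0.36 and 0.19, and CCND1, which encodes cyclin D1, 0.24 and 0.38. With the replicate block 3 of the 11 rose and 1 fell with each miRNA. Under the block 24.5% of all genes were higher and 20.2% lower with miR-23b, and 26.4% and 27% with miR-27a. JUN (0.0085 and 0.0092) and ELK1 (-0.36 and -0.40, adjusted p = 0.043 and 0.026) passed with both, RPS6KA2 (0.35) and MKNK2 (0.32) with miR-23b, and RPS6KA3 (0.0075) and CCND1 (0.045) with miR-27a. ELK1, RPS6KA2 and MKNK2 lay outside the naming rule and were picked by their values. With the dimmest probes removed RPS6KA3 also passed with miR-27a (0.046), but its other probe had -0.20 and -0.09 and passed neither with nor without the block. Of 4 measured ERK phosphatases, DUSP5, a nuclear one, fell with miR-27a (-0.56 ± 0.16, adjusted p = 0.026) and had -0.26 ± 0.16 with miR-23b, while DUSP3, DUSP6 and DUSP9 had changes between -0.16 and 0.39 (DUSP3 with miR-27a passed with the replicate block, 0.014).

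**Figure D3:**
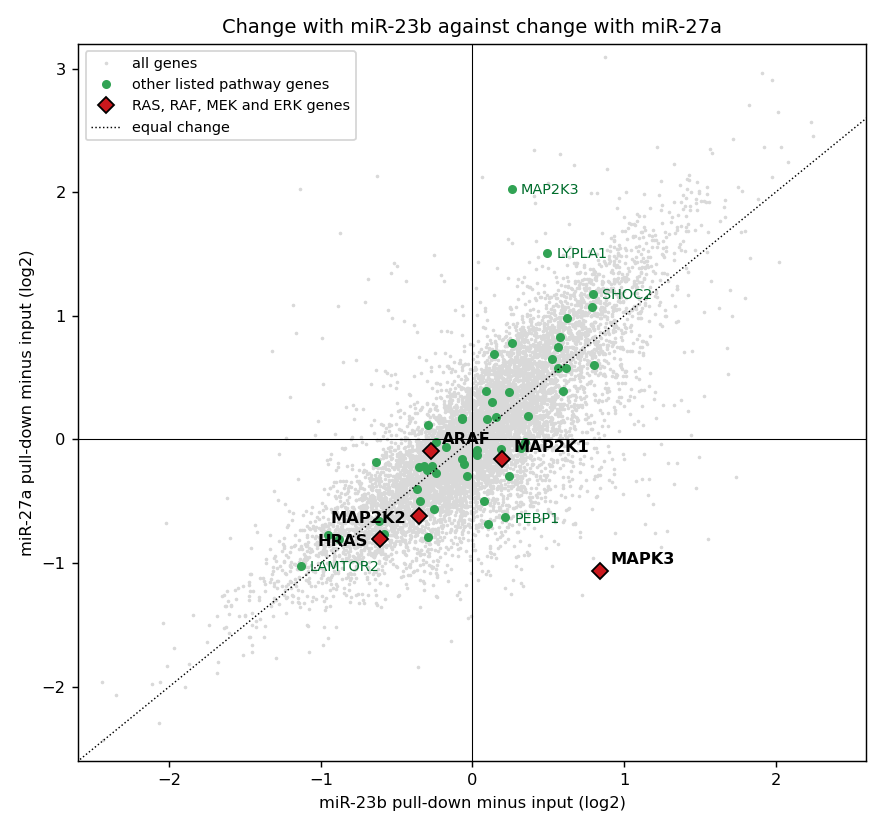
Log2 change with miR-27a (y axis) against log2 change with miR-23b (x axis) for all genes (grey), 53 other pathway genes (green) and the 5 measured RAS, RAF, MEK and ERK genes (red), with a dotted line where both changes are equal. HRAS, MAP2K2 and ARAF lie near the line, and MAPK3 lies far below it at 0.84 and -1.07.

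The parallel MAP kinase routes held the 1 pathway gene whose difference between the miRNAs passed. MAP2K3 encodes MKK3, a kinase that activates p38 and not ERK. Its levels were 10.19 and 10.19 in the miR-23b pull-downs, against 10.00 and 9.86 in their inputs. In the miR-27a pull-downs they were 12.31 and 11.79, against 10.17 and 9.87 in the inputs, so that the miR-27a pull-downs lay above all other arrays. MAP2K3 rose with miR-27a by 2.03 ± 0.19 (limma, adjusted p = 0.00088) and had 0.26 ± 0.19 with miR-23b (adjusted p = 0.36). The difference of -1.77 ± 0.28 pointed away from that of MAPK3 and lay just under the threshold (adjusted p = 0.049, and 0.0018 with the replicate block). It was lost with an intensity trend (0.051) and when any one of the 8 arrays was left out, where it lay between -2.03 and -1.51 (0.083 to 0.19). MAPK6, which encodes ERK3, an atypical relative of ERK1, rose with miR-27a (0.78 ± 0.18, adjusted p = 0.014) and had 0.26 ± 0.18 with miR-23b. MAPK8, which encodes the kinase JNK1, had 0.57 and 0.75 and passed only with the replicate block (0.0036 and 0.00060). MAP2K4, whose product MKK4 activates JNK, had 0.60 and 0.39 and also passed only with the block (0.0054 and 0.032), while its other probe rose with miR-23b without it (0.89 ± 0.24, adjusted p = 0.034). MAP2K5, which encodes the kinase that activates ERK5, had -0.32 and -0.22, of which the first passed with the block (0.040). Its other probe had -0.02 and -0.11 and passed neither with nor without the block. MAPK7, the gene of ERK5 itself, had 0.08 and -0.50, of which the second passed with the block (0.0093). The other MAPK7 probe had 0.19 and -0.33 and did not pass, also with the block (0.068 for miR-27a).

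Over the 53 genes, the difference passed for 0 higher with miR-23b and 1 lower, or 0% and 1.89%, against 0.262% and 0.283% of all genes. Whether a count of 1 gene differs from the background was not tested. An unadjusted p under 0.05 was reached by 3 of the 53, against 968 of all 9535 genes. With the replicate block 3.2% of all genes passed as higher with miR-23b and 1.48% as higher with miR-27a. PEBP1 then passed as well, as higher with miR-23b. Its levels were 12.60 and 12.67 in the miR-23b pull-downs and 12.41 and 12.43 in their inputs, and 11.60 and 11.80 in the miR-27a pull-downs against 12.39 and 12.27. The miR-23b and miR-27a pull-downs thus lay on opposite sides of all 4 inputs, as for MAPK3. How many of all genes had such levels was not counted. The rise of PEBP1 with miR-23b was small, 0.20 and 0.24 in the replicates, and did not pass. The difference was 0.85 ± 0.19 (limma, adjusted p = 0.15, and 0.025 with the replicate block). The sign pattern of MAPK3 in all replicates was found for 3 of the 53, PEBP1, FNTB, the beta subunit of protein farnesyltransferase, and MAPK7, or 5.66% against 6% of all genes, and the reverse pattern for PPP2CA and MAPK9, or 3.77% against 2.94% of all genes. The other PPP2CA probe did not have the pattern, with changes of 0.30 and 0.31. FNTB, MAPK7, PPP2CA and MAPK9 also fell outside the naming rule and were picked by their values.

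Without single arrays, 2 of the 10 calls with miR-23b were kept whichever array was left out (LAMTOR2 and LAMTOR5) and 5 of the 16 with miR-27a (ICMT, LAMTOR2, LAMTOR4, MAP2K3 and SHOC2). Leaving out input replicate 2 of miR-23b left 2 genes called with miR-23b, and leaving out pull-down replicate 2 left 4. Of the counts with miR-27a, 9 were left without either replicate 1 array of miR-27a, and 8 without pull-down replicate 2. PTPN11 with miR-23b was lost in all 8 cases (adjusted p up to 0.22), and SPRED1 with miR-23b without either pull-down of miR-23b, its input replicate 2 or either miR-27a pull-down (up to 0.24).

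**Figure D4:**
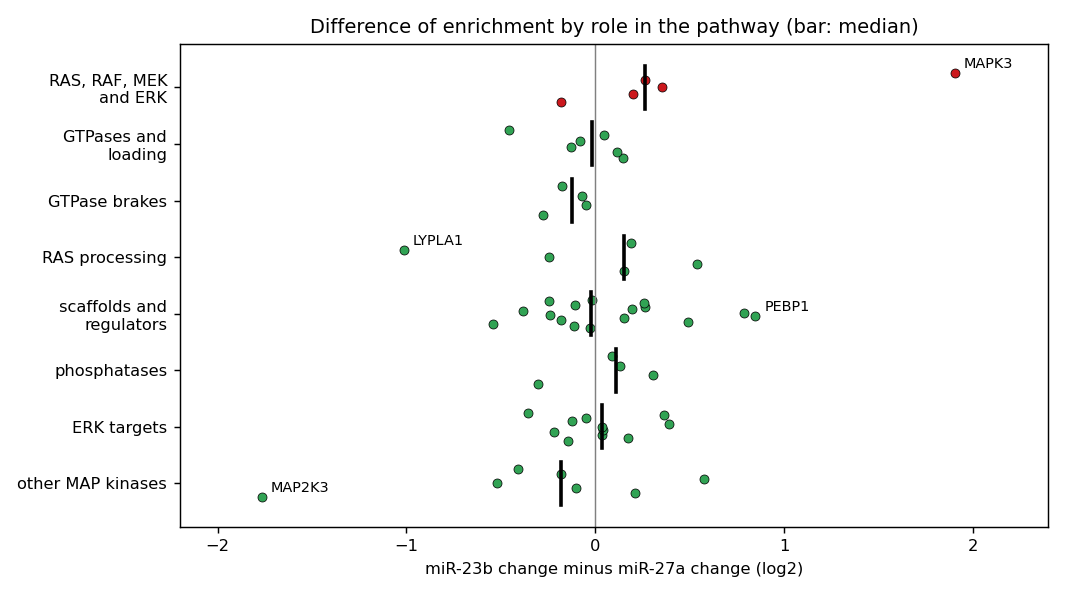
Difference between the log2 changes, miR-23b minus miR-27a (x axis), of each measured gene grouped by role (y axis), with a bar at the median of each role. MAPK3 at 1.91 and MAP2K3 at -1.77 lie at opposite ends, and 2 further genes, LYPLA1 and PEBP1, are labelled.

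The genes whose levels over the 8 arrays were most like those of MAPK3 were not kinases of the cascade. They were QARS1, the glutaminyl-tRNA synthetase (Pearson r = 0.99), MRPS12 of the mitochondrial ribosome (0.99), NCDN, a neuronal protein gene (0.98), ACTA2, a smooth muscle actin (0.98), and EIF2D, a translation initiation factor (0.98). Their changes with miR-23b lay between 0.30 for ACTA2 and 0.80 for EIF2D, and with miR-27a between -0.96 for EIF2D and -0.40 for ACTA2. These correlations describe 8 arrays in 4 groups, which share the group differences, and are the highest among all genes. Within the cascade r with MAPK3 was 0.37 for MAP2K1, 0.29 for MAP2K2, 0.19 for HRAS and -0.41 for ARAF. Among the other pathway genes PEBP1 (0.94) came closest and MAP2K3 had the lowest value (-0.76).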

How the data were processed

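Illumina bead arrays with 1 colour were used, 8 in all. The authors deposited log2 values for 14479 probes, and the submitters' processing notes name lumi 2.2.1. Transformation, normalization method and probe filter: not given in the sources used here. Array medians lay between 9.09 and 9.12, so each change is measured against the bulk of the probes on that array. If a variance-stabilizing transformation was used, changes of dim probes are understated, and folds are called apparent. Signals before normalization, with their detection p-values, were left out, since their 16 columns carry names that match no sample, so background was not assessed.

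The platform annotation gave 1 gene for 12008 probes, several for 2 and none for 2469, and 12006 were found by Entrez identifier in the RefSeq table of GRCh38.p14, with 0 symbols changed. Where a gene had several probes, the brightest over all arrays stood for it.

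A mean per group was fitted over all arrays with limma 3.58.1 in R 4.3.3 (4 residual degrees of freedom, two-sided moderated tests, Benjamini-Hochberg adjustment over all probes, threshold 0.05), and the fit was tested on simulated data. Same-numbered arrays deviated together (r = 0.34 to 0.80 over 6 pairs of groups). Changes per replicate took same-numbered arrays as pairs, which rests on the data and not on the labels. The main fit took no term for the replicate number, and the replicate block was an alternative. Further alternatives were median scaling, quantile normalization, removal of dim probes, an intensity trend, fits per miRNA, probe averages and single arrays left out. The members and lists were chosen with earlier results of these data known. Named were all members, pathway genes that passed for the difference, up to 3 per role with the smallest adjusted p in each comparison, and the 5 genes most correlated with MAPK3.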

Additional observations from a re-analysis of the deposited data

Results flagged for a closer look

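The difference of enrichment between the miRNAs passed for MAP2K3 (-1.77, miR-23b minus miR-27a, limma, adjusted p = 0.049). The following genes changed in opposite directions with the 2 miRNAs in every replicate, and for them the opposite direction was not tested as such. They were MAPK3 (difference 1.91, chosen for this pattern), MAP2K1 (0.35), PEBP1 (0.85), MAPK7 (0.57) and FNTB (0.54), with changes above 0 with miR-23b, and MAPK9 (-0.41) and PPP2CA (-0.24), with changes above 0 with miR-27a. The other PPP2CA probe was above 0 with both (0.30 and 0.31). Above 0 with miR-23b and below 0 with miR-27a in every replicate were 6% of all genes. Of these genes other than MAPK3, 0 passed the test of the difference itself, and PEBP1 passed with the replicate block (adjusted p = 0.025).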

How the results depend on the processing

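With the replicate block the number of genes past the threshold rose from 2317 to 4261 with miR-23b, from 3294 to 5090 with miR-27a and from 52 to 446 for the difference, and that of the other pathway genes from 10 to 20, from 16 to 28 and from 1 to 2. On the miR-23b arrays alone 1375 genes and 5 pathway genes passed, and with an intensity trend 0 pathway genes passed for the difference. Without single arrays the counts were 818 to 1979 genes with miR-23b, 1703 to 3412 with miR-27a and 0 to 12 for the difference, and 2 to 9, 8 to 19 and 0 pathway genes. Each such fit leaves 1 array in its group, which is assumed to vary like the others. Background correction of the non-normalized signals was not run, as their columns could not be matched. MAPK3 kept its signs in all alternatives for both pull-downs and for the difference, which is a description. It was chosen for these signs, and its pull-downs did not overlap the inputs, so leaving out an array could not turn them. The members and the pathway genes followed through the alternatives kept the direction of their calls, and the directions of other genes were not tabulated. With 2 arrays per group precision is low, and the intervals of the 4 tested members reached from -0.69 to 1.01 for the difference.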
